A study of Mus musculus with 20 samples.

Results

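Extracellular matrix and stellate cell genes of the liver were followed in 4 groups of mice. The 40 genes were taken by symbol from a list whose rule uses no measured value, out of 54532 genes in the count table. The list was nevertheless drawn up with earlier results of these data known, so its calls are no independent evidence against the shares over all genes. Of these, 37 passed the filter on low counts (a CPM, counts per 1000000 counts of the library, of at least 2 in at least 3 mice) and were among the 12289 genes tested. *Lox*, *Timp1* and *Acta2* did not pass, and *Eln* passed only through the Sham HFD mice. Levels are given as CPM after scaling by trimmed mean of M values (TMM).

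All 20 animals were male C57BL/6J mice made obese by 12 weeks of high-fat diet (HFD) before surgery, the controls included. They then had either Roux-en-Y gastric bypass (RYGB, in which food is led past most of the stomach and the upper small intestine) or a sham operation, and ate chow or HFD for the following 8 weeks. This gave the chow-fed groups Sham Chow and RYGB Chow and the HFD-fed groups Sham HFD and RYGB HFD, of 5 mice each, with 1 RNA-seq library of whole snap-frozen liver per mouse. Chow groups had therefore been switched from HFD to chow, and no group of never-obese mice is among the samples. Change over time within a mouse was not measured. Below, rose and fell mean higher and lower in the second group of a comparison than in the first. The study describes that Sham HFD mice were heavier than the other groups, so that diet or surgery and body weight cannot be told apart in any comparison with Sham HFD. In RNA of whole liver, fewer cells of a type and less RNA per cell also cannot be told apart.

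Hepatic stellate cells lie between the sinusoidal endothelium and the hepatocytes, store vitamin A and, when activated by signals such as TGF-beta and PDGF, turn into myofibroblasts that lay down fibrillar collagen. The matrix they make consists of fibrillar collagens I, III and V, microfibrils of collagen VI, basement membrane collagens and laminins, proteoglycans such as decorin and biglycan, and glycoproteins such as fibronectin. Its turnover is set by cross-linking enzymes of the lysyl oxidase family, by matrix metalloproteinases and by their tissue inhibitors. Some matrix proteins of the liver, fibronectin and collagen XVIII among them, are made mainly by hepatocytes.

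Depth ran from 14604854 to 22537498 counts per mouse (median 19056997). One library stood apart in Sham HFD: replicate 4 held 133 CPM of *Acta1*, the actin of skeletal muscle, and a summed 245 CPM over 6 skeletal muscle genes, against at most 1.26 CPM in the other libraries. Sham HFD replicates 1 and 4 also held transcripts of fat tissue, with *Adipoq* at 0.870 and 0.839 CPM and a summed level of 4 fat genes of 3.77 and 2.88 CPM, against at most 0.272 CPM elsewhere. Those 4 genes are an adipose list of 5 without *Cfd*, a choice made after values were seen. With *Cfd*, adipsin, the sum was highest in RYGB HFD replicates 1 and 3 (24.4 and 12.5 CPM) and was 9.74, 8.15 and 7.55 CPM in Sham HFD replicates 1, 3 and 4. *Cfd*, the 1 tested gene of the 5, was higher in RYGB HFD than in RYGB Chow (log2 fold change 4.32 ± 0.94, adjusted p = 0.0139 by edgeR). The summed level of 10 sinusoidal endothelial genes was lowest in RYGB Chow replicate 5 (150 CPM) and in RYGB HFD replicates 3 and 2 (157 and 205 CPM), and lay between 252 and 491 CPM in the other 17 libraries. Counts of genes called are therefore also given without the 2 Sham HFD libraries and, apart from that, without the 3 libraries low in endothelial genes. Those fits were added after the data had been seen.

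**Figure D1:**
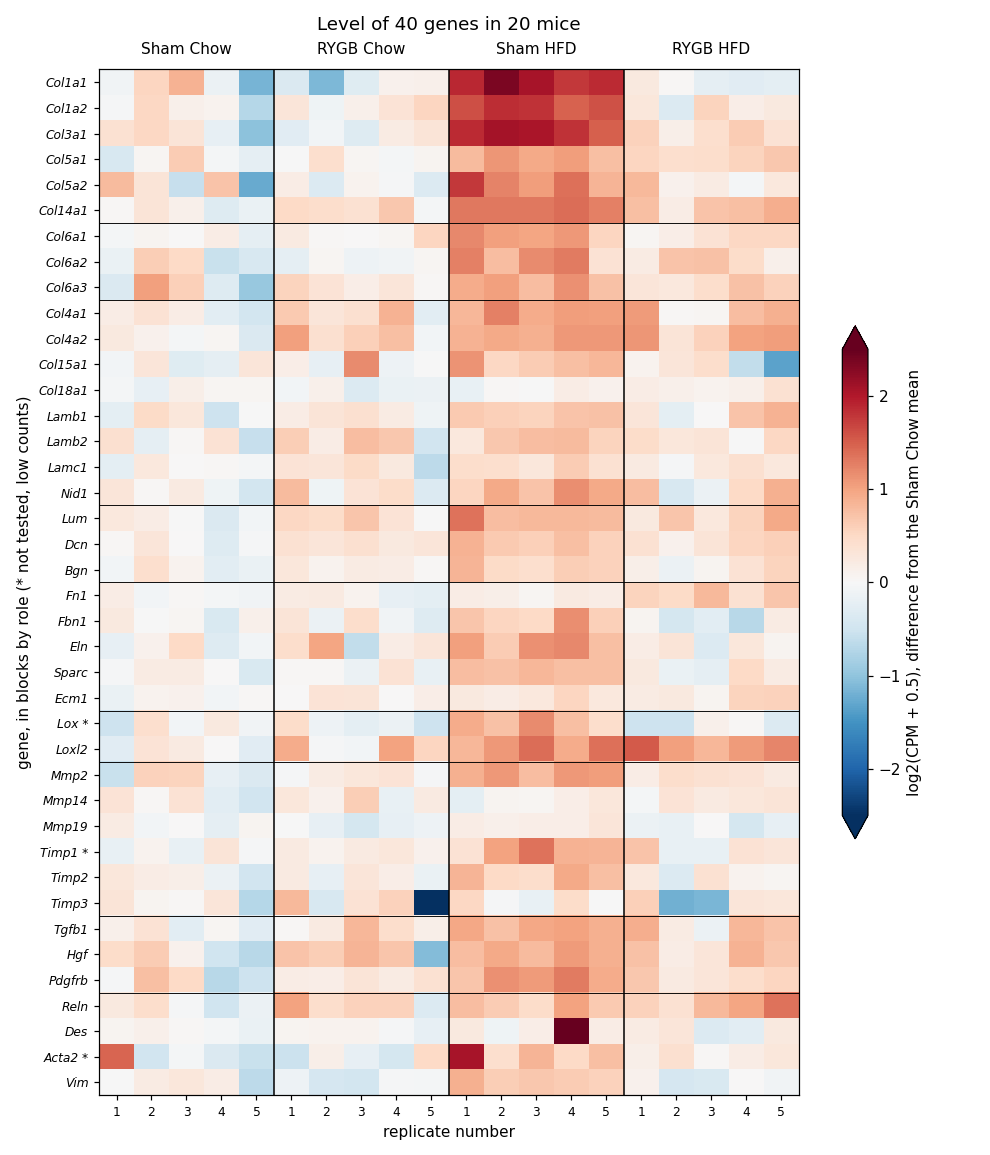
Level of each of the 40 genes (rows, in blocks by role) in each of the 20 mice (columns, by group and replicate), as log2(CPM + 0.5) less the mean of the Sham Chow mice; red is higher and blue lower, and an asterisk marks the 3 genes not tested. Fibrillar collagens are red in all 5 Sham HFD mice, and the highest single cell is *Des* in Sham HFD replicate 4.

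Levels of different genes were compared as CPM per kilobase of exon. On this scale *Col18a1* (144 in Sham Chow), the basement membrane collagen that gives rise to endostatin, and *Fn1* (114), fibronectin, led the 40 genes, followed by *Ecm1* (34.6), a secreted matrix protein. *Dcn* (16.6), decorin, led the 3 proteoglycans. Fibrillar collagens stood low in Sham Chow, with *Col3a1* at 1.63, *Col1a1* at 0.687 and *Col1a2* at 0.549 CPM per kilobase. In Sham HFD these were 5.69, 2.67 and 1.78, and *Col18a1* was still far above them at 146.5. *Lox*, lysyl oxidase, was the lowest of all at 0.0498 in Sham Chow.

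Marker genes of stellate cells are given beside the list. Members are among them, so they are no independent check of its label. All 13 quiescent stellate markers (*Lrat*, *Colec11*, *Rgs5* and others, among them the members *Reln*, *Hgf*, *Ecm1*, *Pdgfrb* and *Des*) passed the filter, and their summed level ran from 529 to 1102 CPM over the 20 mice. Of 7 markers of activated stellate cells or myofibroblasts, 3 passed. *Acta2*, the smooth muscle actin by which myofibroblasts are usually recognized, was among those that did not, and the 3 tested were *Col1a1*, *Loxl2* and *Postn*.

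**Figure D2:**
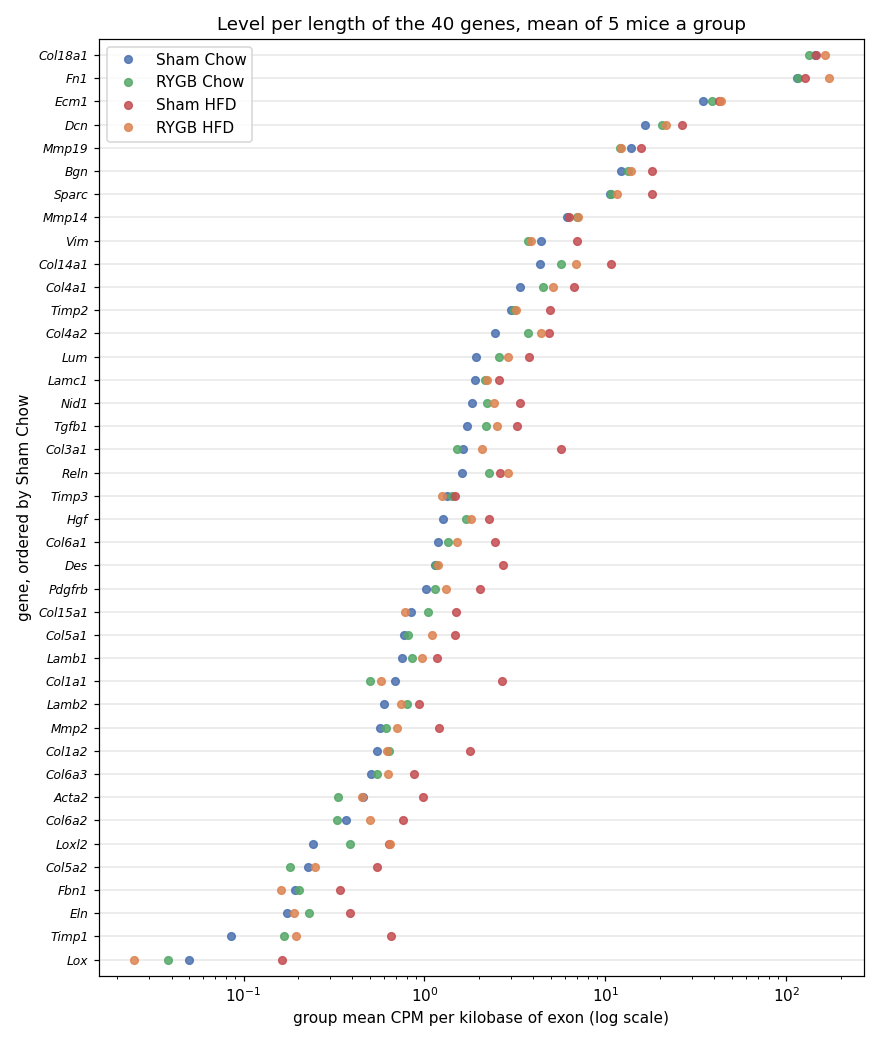
Group mean CPM per kilobase of exon (log axis, n = 5 mice a group) of the 40 genes, ordered by Sham Chow. *Col18a1* and *Fn1* lie above 100 in every group, while the 3 genes not tested lie under 1.

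Diet without bypass gave the most calls of the 4 comparisons. Between Sham Chow and Sham HFD mice, 30 of the 37 tested genes were higher in Sham HFD (adjusted p under 0.05 in edgeR's quasi-likelihood test with Benjamini-Hochberg adjustment) and 0 were lower. One of the 30, *Eln*, passed the filter only through Sham HFD. The filter thus favored a higher value there, and its call is no independent evidence. Over all tested genes, 10.9% were called higher and 10.7% lower. The count of 0 lower was also 0 at an unadjusted p under 0.05, by DESeq2 and by limma-voom. At that unadjusted p, 2203 of the 12289 tested genes were lower. The log2 fold change was above 0 in all 37 genes, with a median of 0.83 against -0.005 over all tested genes. Values of the 5 and 5 mice did not overlap in 27 of the 37 tested genes, all higher in Sham HFD, against 16.5% of all tested genes in either direction. With the 3 untested genes included it was 29 of the 40, again all higher. Without Sham HFD replicates 1 and 4 the count was 19, with a median of 0.77, and without the 3 libraries low in endothelial genes it was 31. Over all tested genes the calls went from 2656 to 1663 in the first of these fits and to 2982 in the second. The calls lost without those 2 Sham HFD mice were *Col5a2*, *Col6a2*, *Col6a3*, *Lamb1*, *Lamc1*, *Fbn1*, *Eln*, *Ecm1*, *Hgf*, *Reln* and *Des*. Scaling by library size alone moved the median of all tested genes to 0.122 and gave 33 calls.

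**Figure D3:**
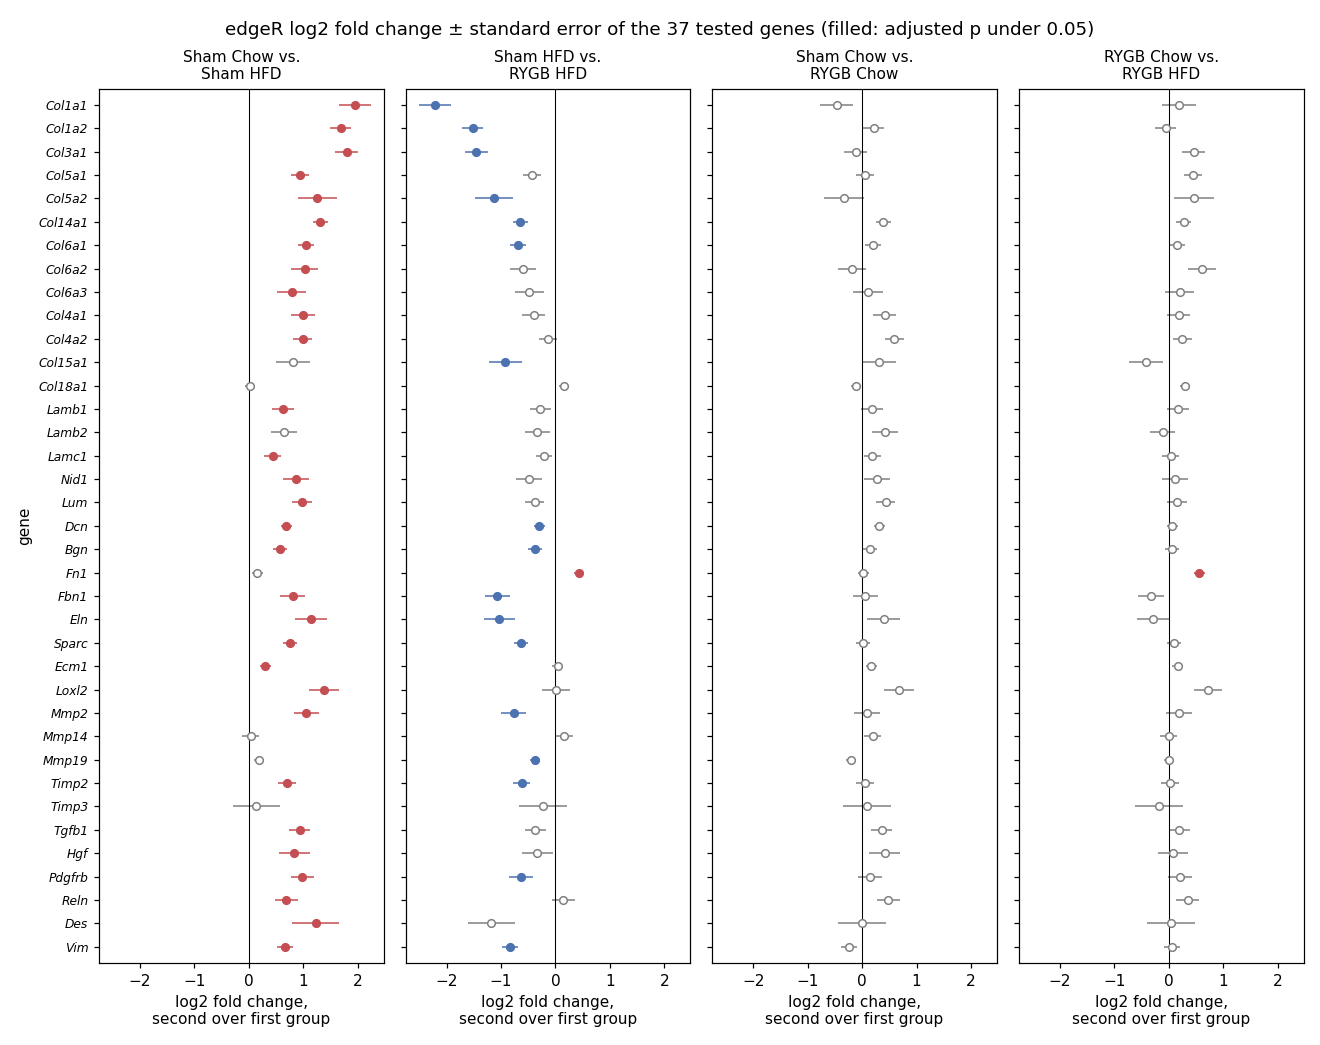
Log2 fold change (± SE) of the 37 tested genes in the 4 comparisons, second group over first, from edgeR. Filled red points were called higher and filled blue points lower: 30 are red for diet in sham mice, 17 blue and 1 red for surgery on HFD, none is filled for surgery on chow and 1 is red for diet after bypass.

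All 6 fibrillar and fibril-associated collagens rose in Sham HFD. *Col1a1*, the alpha 1 chain of collagen I, measured 3.77, 6.003, 7.68, 3.57 and 1.51 CPM in the 5 Sham Chow mice and 16.1, 22.6, 18.2, 14.9 and 15.9 CPM in the 5 Sham HFD mice. The lowest Sham HFD mouse was above the highest Sham Chow mouse, and the level was 3.85-fold higher (log2 fold change 1.94 ± 0.30 (SE), adjusted p = 0.000126 by edgeR). *Col1a2*, the alpha 2 chain that joins 2 alpha 1 chains in the same trimer, measured 6.47, 9.68, 7.17, 6.997 and 3.82 CPM in Sham Chow and 21.2, 24.9, 24.2, 19.2 and 20.8 CPM in Sham HFD. These groups did not overlap either, and the rise was 3.22-fold (1.69 ± 0.19 (SE), adjusted p = 6.8e-06). *Col3a1*, the collagen III chain laid down beside collagen I, measured 19.6, 21.6, 18.8, 12.8 and 7.03 CPM in Sham Chow and 55.4, 64.7, 63.01, 53.5 and 42.5 CPM in Sham HFD. Again each Sham HFD mouse lay above each Sham Chow mouse, by 3.48-fold (1.80 ± 0.21 (SE), adjusted p = 1.1e-05).

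*Col14a1*, a fibril-associated collagen, had the smallest p of the 40 genes in this comparison. Its level was 30.8, 37.9, 32.98, 23.8 and 26.7 CPM in Sham Chow and 75.4, 75.5, 75.4, 79.4 and 72.6 CPM in Sham HFD. The Sham HFD mice lay within a narrow range, with no overlap, and the log2 fold change was 1.31 ± 0.14 (SE), adjusted p = 3.71e-06 by edgeR. *Col5a1* and *Col5a2*, chains of the collagen V that nucleates fibrils, had log2 fold changes of 0.94 ± 0.16 and 1.26 ± 0.35 (adjusted p = 0.0004 and 0.0149). The *Col5a2* call was lost without Sham HFD replicates 1 and 4 together.

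Collagen VI, whose beaded microfibrils tie cells to the fibrillar matrix, rose in all 3 of its chains. *Col6a1* measured 4.97, 5.43, 5.23, 5.93 and 4.36 CPM in Sham Chow and 12.5, 11, 10.7, 11.4 and 7.76 CPM in Sham HFD, without overlap, for a log2 fold change of 1.04 ± 0.15 (SE), adjusted p = 7.43e-05 by edgeR. *Col6a2* and *Col6a3* overlapped between the groups, with log2 fold changes of 1.03 ± 0.25 and 0.79 ± 0.27 (adjusted p = 0.0063 and 0.0398). Both calls were lost without Sham HFD replicates 1 and 4, and *Col6a3* was called in 13 of the 20 fits that left out 1 mouse (adjusted p up to 0.0923).

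Stretches before the starts of *Col3a1* and *Col6a1* are printed as examples of promoter sequence of fibrillar and microfibrillar collagens that rose together. They are RefSeq windows of build GRCm38.p6, read 5′ to 3′ on the gene's strand up to the start or, for *Col6a1*, to the first annotated exon base. *Col3a1* lies at chr1:45311288-45311537 (plus strand) and *Col6a1* at chr10:76726169-76726294 (minus strand). Capitals mark 4 motifs searched on both strands. These are the CCAAT box (spelled CCAAT), the TATA box of core promoters (spelled TATAAA), the GC box bound by SP1 (spelled GGGCGG) and an element bound by SMAD proteins (spelled CAGACA).
Col3a1: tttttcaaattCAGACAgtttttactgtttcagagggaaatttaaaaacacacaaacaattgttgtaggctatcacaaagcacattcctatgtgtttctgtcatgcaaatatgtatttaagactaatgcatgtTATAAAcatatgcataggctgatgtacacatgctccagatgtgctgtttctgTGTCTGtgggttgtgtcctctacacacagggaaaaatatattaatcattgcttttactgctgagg
Col6a1: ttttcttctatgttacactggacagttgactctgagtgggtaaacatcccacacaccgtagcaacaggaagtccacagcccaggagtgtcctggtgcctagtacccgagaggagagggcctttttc
The *Col3a1* stretch holds the TATA box letters once and the SMAD element letters on either strand, and the *Col6a1* stretch holds none of the 4. Among 32851 windows of 250 bases before gene starts, 33.8% held the first of these motifs, 12.4% the TATA box letters, 32.7% the GC box letters and 17.1% the SMAD element letters. Windows were matched for 27 of the 40 genes, and among their 30 windows the shares in the same order were 33.3%, 10%, 60% and 26.7%, a description and no test.

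Basement membrane genes rose less evenly, 5 of 8 being called. *Col4a1* and *Col4a2*, the collagen IV chains that form the network of every basement membrane and are transcribed from one shared start region in opposite directions, had ranges of 17.6 to 31.9 CPM and 12.6 to 19.2 CPM in Sham Chow, against 44 to 59.2 CPM and 29.9 to 35.05 CPM in Sham HFD. Neither overlapped, and their log2 fold changes were 1.00 ± 0.21 and 0.99 ± 0.17 (adjusted p = 0.00268 and 0.000461 by edgeR). *Nid1*, nidogen, which links laminin to collagen IV, had 0.87 ± 0.24 (SE), adjusted p = 0.0132. The laminin chains *Lamb1* (0.63 ± 0.20, adjusted p = 0.0289) and *Lamc1* (0.44 ± 0.15, adjusted p = 0.0452) passed by less and were called in 15 and 7 of the 20 fits without 1 mouse (adjusted p up to 0.0725 and 0.106). *Lamb2* (0.65 ± 0.24, adjusted p = 0.0547) and *Col15a1*, a collagen of the zone beneath basement membranes (0.81 ± 0.31, adjusted p = 0.0642), did not pass, although DESeq2 and limma-voom called both (adjusted p of 0.0314 and 0.0423 for *Lamb2*, 0.0353 and 0.0398 for *Col15a1*). *Col18a1*, at 871 to 1117 CPM in Sham Chow and 882 to 1150 CPM in Sham HFD, had a log2 fold change of 0.03 ± 0.09 (adjusted p = 0.858).

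The 3 small leucine-rich proteoglycans, which bind collagen fibrils and TGF-beta, all rose. *Dcn* measured 98.2, 118, 96.5, 76.6 and 94.4 CPM in Sham Chow and 176, 150.4, 146, 162 and 143 CPM in Sham HFD. The groups did not overlap, with a log2 fold change of 0.68 ± 0.10 (SE), adjusted p = 9.89e-05 by edgeR. *Lum*, lumican, and *Bgn*, biglycan, had log2 fold changes of 0.97 ± 0.18 and 0.58 ± 0.13 (adjusted p = 0.000806 and 0.00362), again without overlap.

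Among glycoproteins and elastic fiber genes 4 of 5 rose, *Eln* among them, which the filter kept only through Sham HFD. *Sparc*, a collagen-binding protein of matrix assembly, measured 38.8, 46.3, 45.8, 39.98 and 30.5 CPM in Sham Chow and 68.3, 66.8, 71.04, 67.2 and 67.3 CPM in Sham HFD. No mice overlapped (0.76 ± 0.13 (SE), adjusted p = 0.000479 by edgeR). *Eln*, elastin, and *Fbn1*, fibrillin, had log2 fold changes of 1.15 ± 0.29 and 0.81 ± 0.23 (adjusted p = 0.00881 and 0.0167). *Fbn1* was not called without Sham HFD replicate 4 (adjusted p = 0.0556). *Ecm1* rose by 0.30 ± 0.10 (adjusted p = 0.0434) and was called in 13 of the 20 fits without 1 mouse (adjusted p up to 0.126). *Fn1* was the exception, at 1512, 1260, 1351, 1280 and 1258 CPM in Sham Chow and 1509, 1477, 1374, 1551 and 1516 CPM in Sham HFD. Those ranges overlapped, and its log2 fold change of 0.16 ± 0.10 did not pass (adjusted p = 0.267).

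Enzymes of turnover moved unevenly. *Loxl2*, which cross-links collagen IV, rose by 1.38 ± 0.27 (SE), adjusted p = 0.0013 on the log2 scale by edgeR. *Mmp2*, a gelatinase, and *Timp2*, the inhibitor that also takes part in its activation, rose by 1.06 ± 0.23 and 0.70 ± 0.16 (adjusted p = 0.00318 and 0.00396). *Mmp14*, the membrane-bound protease that activates *Mmp2*'s product, had 0.03 ± 0.16, *Mmp19* had 0.19 ± 0.09 and *Timp3*, an inhibitor held in the matrix, had 0.14 ± 0.44, with adjusted p of 0.903, 0.145 and 0.849. *Mmp19* and *Timp3* share 22.3% and 21.3% of their exon length with *Tmem198b* and *Syn3* on the opposite strand, and the strand setting of the counting is not given in the sources used here.

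*Timp1*, an inhibitor of metalloproteinases, and *Lox* stayed under the filter. *Timp1* measured 0, 0.103, 0, 0.214 and 0.0606 CPM in Sham Chow and 0.232, 0.647, 0.971, 0.539 and 0.526 CPM in Sham HFD. All Sham HFD mice lay above all Sham Chow mice, on 0 to 3 counts per mouse in Sham Chow and 4 to 23 in Sham HFD. In the fit without a filter its log2 fold change was 2.97 ± 0.84 (SE), with an adjusted p = 0.0237 by edgeR. That fold change depends on the prior count because 2 Sham Chow mice were at 0. *Lox* ranged from 0 to 0.466 CPM in Sham Chow and from 0.482 to 1.14 CPM in Sham HFD, with 1.70 ± 0.74 and an adjusted p = 0.17 in that fit.

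The 2 signals *Tgfb1* and *Hgf* and the receptor *Pdgfrb*, which binds neither, were all called higher. *Tgfb1*, the cytokine that drives stellate activation, measured 9.37, 11.02, 6.94, 8.85 and 6.91 CPM in Sham Chow and 16.99, 14.4, 17.1, 17.5 and 16.1 CPM in Sham HFD. There was no overlap, and the log2 fold change was 0.93 ± 0.19 (SE), adjusted p = 0.00192 by edgeR. *Pdgfrb*, the PDGF receptor of stellate cells, measured 5.07, 9.004, 7.49, 2.999 and 3.46 CPM in Sham Chow and 8.696, 12.1, 11.4, 13.4 and 10.3 CPM in Sham HFD. One Sham Chow mouse lay within the Sham HFD range (0.98 ± 0.22 (SE), adjusted p = 0.00327). *Hgf*, the hepatocyte growth factor that stellate cells secrete, had 0.83 ± 0.28 (SE), adjusted p = 0.0398, and was called in 12 of the 20 fits without 1 mouse (adjusted p up to 0.103) and not without Sham HFD replicates 1 and 4.

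Stellate and cytoskeletal markers were less uniform. *Reln*, reelin, which stellate cells express in quiescence too, measured 44.6, 50.9, 36.9, 26.3 and 33.6 CPM in Sham Chow and 64.4, 58.7, 51.95, 75.4 and 59.2 CPM in Sham HFD. The groups did not overlap (0.68 ± 0.21 (SE), adjusted p = 0.0254 by edgeR), but the call was lost without Sham HFD replicate 4 or without Sham Chow replicate 3, 4 or 5 (adjusted p up to 0.0672). *Vim*, vimentin, the intermediate filament of mesenchymal cells, measured 20.1, 23.6, 25.1, 23.1 and 12.8 CPM in Sham Chow and 38.1, 31.6, 32.6, 31.9 and 30.7 CPM in Sham HFD, without overlap (0.65 ± 0.15 (SE), adjusted p = 0.00357). *Acta2* measured 2.99, 0.414, 0.74, 0.4998 and 0.364 CPM in Sham Chow and 4.81, 1.202, 1.82, 1.32 and 1.67 CPM in Sham HFD. One mouse stood above the rest in each group, and without a filter its log2 fold change was 1.05 ± 0.47, with an adjusted p = 0.193.

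*Des*, desmin, the intermediate filament of muscle and of rodent stellate cells, was called through 1 mouse. It measured 4.54, 4.76, 4.39, 4.14 and 3.76 CPM in Sham Chow and 5.22, 3.98, 4.86, 32.2 and 4.999 CPM in Sham HFD. The high value belongs to replicate 4, the library with skeletal muscle transcripts, and the other 4 Sham HFD mice overlapped with Sham Chow. The log2 fold change was 1.23 ± 0.43 (SE), adjusted p = 0.0473 by edgeR with that mouse and 0.14 without it (adjusted p = 0.586). DESeq2 and limma-voom did not call it.

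**Figure D4:**
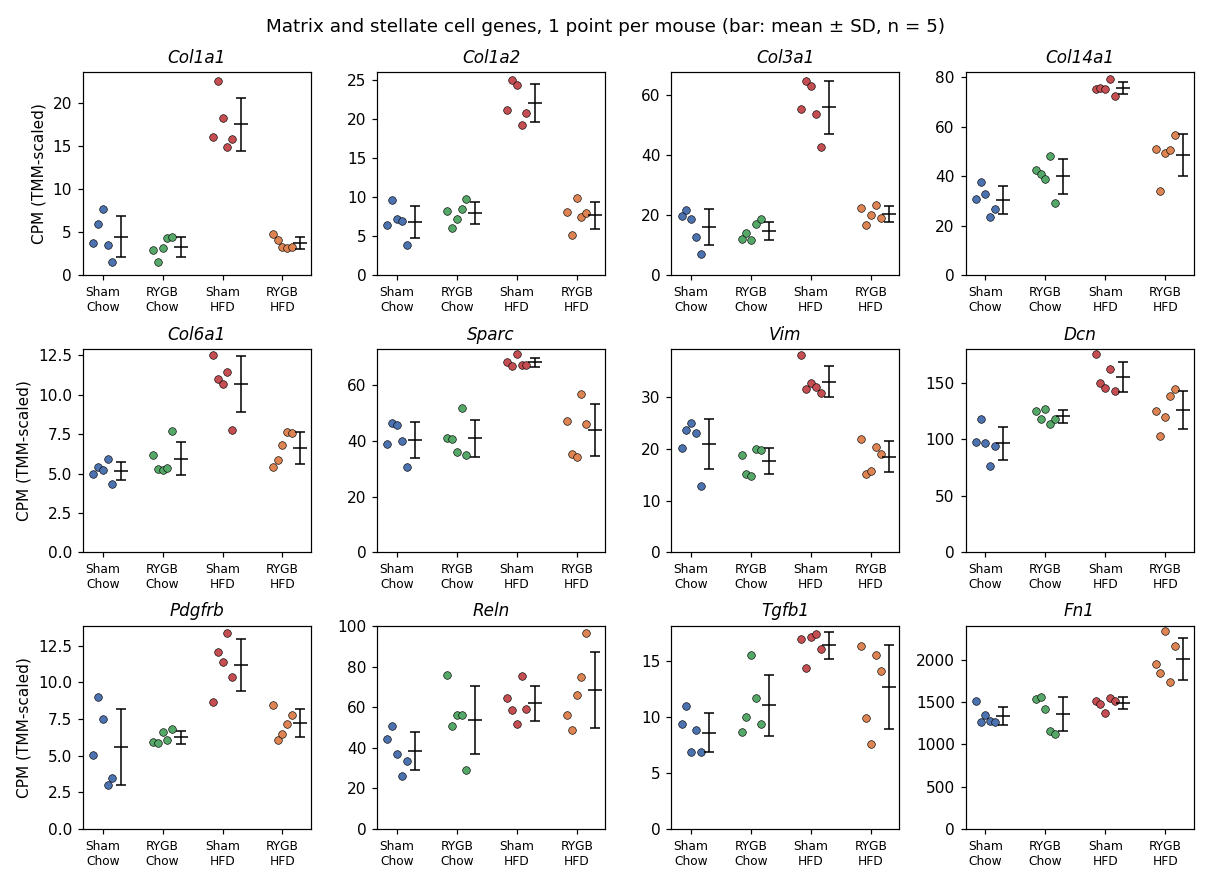
CPM of 12 genes in each mouse (points) with the mean and SD of each group (n = 5). The 5 Sham HFD points lie above all Sham Chow points except for *Pdgfrb* and *Fn1*, and *Fn1* is highest in RYGB HFD.

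The second question was how these genes differed between sham and RYGB mice when the diet stayed high in fat. Between Sham HFD and RYGB HFD mice, 17 of the 37 tested genes were lower after RYGB and 1 was higher by edgeR's quasi-likelihood test (adjusted p under 0.05). *Eln* is among the 17. It passed the filter only through Sham HFD, which favored a lower value in RYGB HFD, so its call is no independent evidence. Among all tested genes 7.90% were called lower and 8.54% higher. The median log2 fold change was -0.43, against 0.009 over all tested genes. Of the 37 tested genes, 16 were lower and 1 was higher after RYGB without overlap, against 14.7% of all tested genes in either direction. With the 3 untested genes included, 19 of the 40 did not overlap, 18 lower and 1 higher. Without Sham HFD replicates 1 and 4 the calls numbered 10 (*Fn1* higher, *Col1a1*, *Col1a2*, *Col3a1*, *Col14a1*, *Col6a1*, *Fbn1*, *Sparc*, *Mmp19* and *Vim* lower). Without the 3 libraries low in endothelial genes they numbered 12, the same 10 with *Col15a1* and *Timp2*. Over all tested genes the calls went from 2021 to 1431 in the first of these fits and to 1583 in the second. This comparison and the previous one share the Sham HFD mice, so a high Sham HFD value moves both.

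Of the 6 fibrillar and fibril-associated collagens, 5 fell. *Col1a1* measured 4.84, 4.11, 3.34, 3.19 and 3.32 CPM in RYGB HFD, all under the lowest Sham HFD value of 14.9 CPM. That was 4.64-fold lower than in Sham HFD (log2 fold change -2.21 ± 0.30 (SE), adjusted p = 4.63e-05 by edgeR). *Col1a2* measured 8.11, 5.102, 9.92, 7.45 and 7.91 CPM and *Col3a1* 22.4, 16.6, 20.1, 23.4 and 19.2 CPM in RYGB HFD. Neither overlapped with Sham HFD, and they were 2.87-fold and 2.75-fold lower (-1.52 ± 0.19, adjusted p = 2.01e-05, and -1.46 ± 0.21, adjusted p = 7.96e-05). *Col14a1* measured 51.1, 34.1, 49.4, 50.8 and 56.8 CPM, again under every Sham HFD mouse (-0.64 ± 0.13 (SE), adjusted p = 0.00228). *Col5a2* fell by 2.18-fold (adjusted p = 0.0312) and was called in 13 of the 20 fits without 1 mouse (adjusted p up to 0.0779). *Col5a1* did not overlap but missed the threshold at -0.43 ± 0.16 (SE), adjusted p = 0.0682, where DESeq2 and limma-voom called it (adjusted p = 0.0445 and 0.037).

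*Col6a1* measured 5.39, 5.83, 6.803, 7.63 and 7.58 CPM in RYGB HFD, just under the lowest Sham HFD mouse at 7.76 CPM (-0.68 ± 0.15 (SE), adjusted p = 0.00285 by edgeR). *Col6a2* and *Col6a3* overlapped, at -0.60 ± 0.25 and -0.48 ± 0.26 (adjusted p = 0.104 and 0.228). *Sparc* measured 47.2, 35.3, 34.1, 56.8 and 45.99 CPM and *Vim* 21.98, 15.1, 15.6, 20.4 and 19.1 CPM in RYGB HFD. Both lay under every Sham HFD mouse, with log2 fold changes of -0.64 ± 0.13 and -0.84 ± 0.15 (adjusted p = 0.00233 and 0.000565). *Fbn1*, *Mmp19* and *Timp2* fell without overlap, by 2.095-fold, 1.302-fold and 1.54-fold (adjusted p = 0.00345, 0.00603 and 0.0102). The *Timp2* call was lost without Sham HFD replicates 1 and 4 together.

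Other genes that fell rested on fewer fits. *Dcn* measured 125, 103, 119.8, 139 and 145 CPM in RYGB HFD, where 1 mouse reached the Sham HFD range (-0.30 ± 0.10 (SE), adjusted p = 0.0447 by edgeR). *Pdgfrb* measured 8.49, 6.09, 6.51, 7.16 and 7.78 CPM, all under the Sham HFD mice (-0.63 ± 0.21 (SE), adjusted p = 0.0481). With *Bgn* (-0.38 ± 0.13, adjusted p = 0.0488) and *Col15a1* (-0.92 ± 0.31, adjusted p = 0.0464) they lay just inside the threshold. *Dcn* was called in 10, *Pdgfrb* in 8, and *Bgn* and *Col15a1* in 7 each of the 20 fits that left out 1 mouse, with adjusted p up to 0.122. *Eln* (-1.03 ± 0.29, adjusted p = 0.0189) was lost without RYGB HFD replicate 3 (adjusted p = 0.0503), and *Mmp2* (-0.77 ± 0.23, adjusted p = 0.0256) was called in 15 of the 20 fits (adjusted p up to 0.0547).

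Genes of the sinusoidal wall, growth factors and several enzymes did not pass the test. *Col4a1*, *Col4a2*, *Lamb1*, *Lamb2*, *Lamc1* and *Nid1* had log2 fold changes from -0.48 to -0.14, with adjusted p from 0.173 to 0.606 by edgeR. In RYGB HFD *Col4a1* measured 52.01, 24.99, 25.5, 42.5 and 46.1 CPM, and the low values are replicates 2 and 3, the libraries low in endothelial genes. *Timp3* was lowest in the same libraries, at 16.2, 4.27, 4.497, 13.01 and 12.96 CPM, and the share of endothelial RNA in this spread was not tested. *Tgfb1* measured 16.4, 9.89, 7.61, 15.6 and 14.2 CPM, with replicates 2 and 3 again lowest and the others within or near the Sham HFD range (-0.37 ± 0.19 (SE), adjusted p = 0.19). *Hgf* had -0.33 ± 0.28, *Lum* -0.39 ± 0.18 and *Mmp14* 0.16 ± 0.16, with adjusted p of 0.45, 0.142 and 0.511.

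*Reln*, *Loxl2* and *Ecm1* were called higher in Sham HFD than in Sham Chow. Between Sham HFD and RYGB HFD they had log2 fold changes above 0 that did not pass the test. *Reln* measured 56.1, 48.7, 66.2, 74.8 and 96.8 CPM in RYGB HFD, a range that spans the Sham HFD mice (0.15 ± 0.21 (SE), adjusted p = 0.682 by edgeR). *Loxl2* ranged from 2.65 to 4.68 CPM in RYGB HFD and from 2.67 to 4.18 CPM in Sham HFD, with a log2 fold change of 0.01 ± 0.26 (SE), adjusted p = 0.978. *Ecm1* ranged from 91.2 to 130.1 CPM in RYGB HFD and from 99.6 to 127 CPM in Sham HFD (0.04 ± 0.10 (SE), adjusted p = 0.833). A p that misses the threshold does not show that the groups were equal.

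*Fn1* was the 1 gene that rose. It measured 1942, 1841, 2340, 1738 and 2162 CPM in RYGB HFD, where the lowest mouse was above the highest Sham HFD mouse at 1551 CPM. The log2 fold change was 0.43 ± 0.10 (SE), adjusted p = 0.00471 by edgeR, and the call held in all 20 fits without 1 mouse. *Col18a1*, the other abundant matrix gene of hepatocytes, had 0.15 ± 0.09 (adjusted p = 0.271).

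Of the markers and untested genes, *Acta2* measured 0.925, 1.197, 0.807, 0.946 and 1.06 CPM in RYGB HFD and did not overlap with Sham HFD. *Lox* measured 0, 0, 0.288, 0.237 and 0.0664 CPM, with 2 mice at 0, and was also under all Sham HFD mice. Without a filter on low counts *Lox* had a log2 fold change of -2.68 ± 0.80, which depends on the prior count (adjusted p = 0.0391 by edgeR). In that fit *Acta2* had -1.12 ± 0.48 (adjusted p = 0.196) and *Timp1* -1.73 ± 0.76 (adjusted p = 0.208). *Timp1* measured 0.435, 0, 0, 0.237 and 0.199 CPM, overlapping with Sham HFD. *Des* measured 5.005, 5.41, 3.29, 3.49 and 5.18 CPM in RYGB HFD, with 1 mouse just above and 2 below the range of the Sham HFD mice other than replicate 4 (-1.18 ± 0.43 (SE), adjusted p = 0.0672).

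On chow, surgery made no difference that passed the test. Between Sham Chow and RYGB Chow mice, 0 of the 37 genes were called by edgeR's quasi-likelihood test, and also 0 by DESeq2 and by limma-voom. Over all tested genes 0.0488% were called higher and 0.00814% lower, that is 7 genes in all, where DESeq2 called 92. At an unadjusted p under 0.05 there were 6 genes higher (*Col14a1*, *Col4a2*, *Lum*, *Dcn*, *Loxl2* and *Reln*) and 1 lower (*Mmp19*), against 700 higher and 625 lower of the 12289 tested genes. The median log2 fold change was 0.17, and 0 of the 40 genes had groups without overlap, against 1.33% of all tested genes. *Col1a1* measured 2.996, 1.56, 3.13, 4.35 and 4.42 CPM in RYGB Chow (-0.47 ± 0.31, adjusted p = 0.617), *Col1a2* 8.17, 6.09, 7.25, 8.51 and 9.79 CPM (0.22 ± 0.19) and *Col3a1* 12.1, 14.2, 11.8, 17.2 and 18.6 CPM (-0.12 ± 0.21). All 3 overlapped with Sham Chow.

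*Col4a2* had the smallest p on chow, at 0.59 ± 0.17 (SE), adjusted p = 0.222 by edgeR. Without the 3 libraries low in endothelial genes it was called (0.71 ± 0.12, adjusted p = 0.022), the only 1 of the 40 genes called in any fit of this comparison. *Col14a1* measured 42.5, 40.99, 39.1, 48.2 and 29.1 CPM in RYGB Chow (0.39 ± 0.14, adjusted p = 0.285), and *Dcn* 126, 118, 127, 114 and 118 CPM (0.32 ± 0.10, adjusted p = 0.257). Both groups overlapped with Sham Chow. *Reln* measured 75.98, 51.01, 56.3, 56.1 and 29.3 CPM and *Pdgfrb* 5.94, 5.87, 6.59, 6.06 and 6.85 CPM, the *Reln* minimum being replicate 5. The same mouse held the lowest *Timp3* (1.36 CPM), *Hgf* (3.79 CPM) and *Lamc1* (9.74 CPM) of its group, beside its endothelial sum of 150 CPM.

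*Col6a1* measured 6.16, 5.28, 5.22, 5.38 and 7.698 CPM, *Sparc* 40.9, 40.6, 36.04, 51.7 and 35.04 CPM and *Vim* 18.7, 15.1, 14.8, 19.99 and 19.8 CPM in RYGB Chow. All overlapped with Sham Chow, with adjusted p of 0.68, 0.977 and 0.586 by edgeR. *Tgfb1* measured 8.66, 10.02, 15.6, 11.7 and 9.396 CPM, *Des* 4.52, 4.63, 4.61, 4.204 and 3.68 CPM and *Fn1* 1532, 1552, 1416, 1159 and 1123 CPM. These overlapped as well (adjusted p = 0.515, 0.999 and 0.957). *Acta2* measured 0.381, 0.916, 0.604, 0.4399 and 1.302 CPM and *Timp1* 0.163, 0.108, 0.165, 0.196 and 0.113 CPM, both low.

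**Figure D5:**
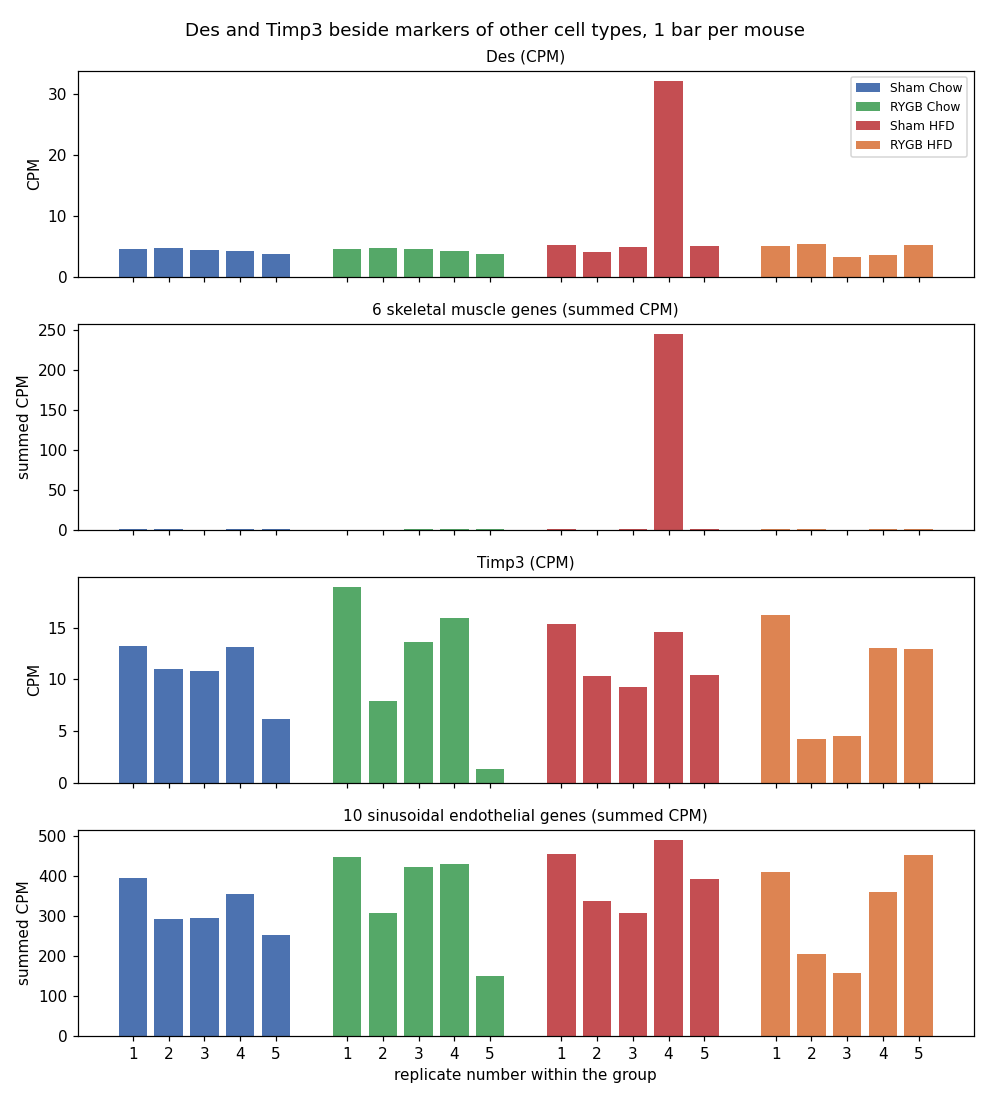
CPM of *Des* and *Timp3* in each mouse (bars, in replicate order within each group) beside the summed CPM of 6 skeletal muscle genes and of 10 sinusoidal endothelial genes. The *Des* and muscle bars peak together in Sham HFD replicate 4 (32.2 and 245 CPM), and the 3 lowest *Timp3* bars are those of the 3 lowest endothelial sums.

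Diet after bypass gave few calls, among these genes as over all tested genes. Between RYGB Chow and RYGB HFD mice 1 gene was called higher and 0 lower by edgeR's quasi-likelihood test, where 1.99% and 1.65% of all tested genes were called. At an unadjusted p under 0.05 there were 6 higher and 0 lower, against 1205 higher and 1103 lower of the 12289 tested genes. DESeq2 and limma-voom also called 0 lower. The called gene was *Fn1*, 1.48-fold higher in RYGB HFD without overlap (0.56 ± 0.10 (SE), adjusted p = 0.00276). *Col6a2* did not overlap either (0.61 ± 0.26 (SE), adjusted p = 0.197), and these 2 of the 37 tested genes stand against 5.05% of all tested genes. *Col18a1* had 0.30 ± 0.09 (adjusted p = 0.0794) and was called by DESeq2 (adjusted p = 0.0356). *Loxl2* had 0.72 ± 0.26 (adjusted p = 0.135), *Col1a1* 0.20 ± 0.31 (adjusted p = 0.802) and *Col3a1* 0.46 ± 0.21 (adjusted p = 0.244). The log2 fold change was above 0 in 31 of the 37 genes, with a median of 0.16 against 0.005 over all tested genes.

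Whether the diet response differed between sham and RYGB mice was tested as the surgery by diet interaction, the log2 fold change of HFD in RYGB mice less that in sham mice. It was negative for 35 of the 37 genes (median -0.73, against 0.016 over all tested genes) and passed the test for 7, all negative. Over all tested genes 2.58% were called negative and 2.48% positive. The 0 positive calls by edgeR compare with 1 at an unadjusted p under 0.05 (*Fn1*, 0.41 ± 0.14, adjusted p = 0.0981) and 0 by DESeq2 and by limma-voom. At that unadjusted p, 1293 of the 12289 tested genes were positive. The 7 were *Col1a1* (-1.75 ± 0.43), *Col1a2* (-1.74 ± 0.27), *Col3a1* (-1.34 ± 0.30), *Col14a1* (-1.04 ± 0.19), *Col6a1* (-0.88 ± 0.21), *Dcn* (-0.62 ± 0.14) and *Sparc* (-0.66 ± 0.19), with adjusted p from 0.00114 for *Col1a2* to 0.0461 for *Sparc*. *Col1a2* was 3.22-fold higher on HFD than on chow in sham mice, and in RYGB mice the fold was 0.966.

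*Col1a2* and *Col14a1* were called in every fit tried for the interaction, those without the doubtful libraries included. *Sparc* was called in 5 of the 20 fits without 1 mouse (adjusted p up to 0.0876), whereas the other 6 kept their call in all 20. Leaving out Sham HFD replicates 1 and 4 gave 4 calls (*Col1a1*, *Col1a2*, *Col3a1* and *Col14a1*), and leaving out the 3 libraries low in endothelial genes gave 3 (*Col1a2*, *Col14a1* and *Col15a1*). Over all tested genes the calls went from 622 to 415 in the first of these fits and to 368 in the second. DESeq2 called 11 of the 37 genes and library size scaling alone 12. That scaling moved the median of all tested genes to -0.125, so its count is read against that shift.

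A wider list of 135 other genes of matrix making, turnover and TGF-beta or PDGF signalling, of which 96 were tested, was counted in the same fits. With HFD in sham mice 31 were higher and 3 lower, against 10.9% and 10.7% of all tested genes. *Lamb3*, a laminin chain of epithelia, rose 4.32-fold (2.11 ± 0.22 (SE), adjusted p = 3.71e-06 by edgeR). *Postn*, periostin, and *Tnc*, tenascin C, both of injured tissue, rose 2.63-fold and 7.25-fold (adjusted p = 5.46e-05 and 9.89e-05). *Itgb5*, an integrin chain, and *Serpinh1*, the collagen chaperone HSP47, rose 1.47-fold and 2.07-fold (adjusted p = 5.46e-05 and 0.000303). After RYGB on HFD 13 were lower and 6 higher, against 7.90% and 8.54%, so that the higher calls were below the share over all genes. *Lamb3* was 3.67-fold lower after RYGB (-1.88 ± 0.22 (SE), adjusted p = 9.45e-06). The higher ones included *Vtn*, vitronectin (1.504-fold), *Plg*, plasminogen (1.39-fold), *Lrg1*, a secreted modulator of TGF-beta signalling (2.11-fold), and *Dact2* (1.96-fold), with adjusted p of 1.43e-05, 0.000262, 6.12e-05 and 0.000254.

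For surgery on chow, 0 genes of the wider list were called by edgeR, while DESeq2 called 1 and limma-voom 0. At an unadjusted p under 0.05 there were 17 of the 96, against 1325 of all 12289 tested genes. With HFD after bypass 4 rose, against 1.99% of all tested genes: *Lrg1* (0.97 ± 0.15, adjusted p = 0.000745), *Plg* (0.30 ± 0.08, adjusted p = 0.033), *Itgb5* (0.30 ± 0.08, adjusted p = 0.035) and *Met*, the receptor of the *Hgf* product (0.36 ± 0.10, adjusted p = 0.0458). The interaction was called negative for 6 and positive for 4 of the 96, against 2.58% and 2.48%. The 26 tested genes of TGF-beta and PDGF signalling held 3 that rose and 1 that fell in Sham HFD, near or below the 10.9% and 10.7% over all genes, and the 16 tested glycoproteins and proteoglycans held 11 that rose and 1 that fell. Whether these lists differ was not tested.

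Markers of other cell types moved beside these results, and their part in them was not tested. The sum of 6 hepatocyte genes was lower in Sham HFD (73830 to 86590 CPM) than in RYGB HFD (104200 to 122800 CPM), without overlap, and ran from 85530 to 105000 CPM in Sham Chow and from 76400 to 127600 CPM in RYGB Chow. Of these 6, 3 fell in Sham HFD against Sham Chow (*Apoa1*, *Serpina1a* and *Cps1*), 5 rose and *Ttr* fell in RYGB HFD against Sham HFD, and 3 were called positive in the interaction. All 6 lipid-associated macrophage markers were called in Sham HFD against Sham Chow, *Trem2*, *Gpnmb*, *Itgax* and *Lgals3* higher and *Cd9* and *Fabp5* lower, and in RYGB HFD against Sham HFD *Itgax* fell and *Fabp5* rose. The summed level of 6 mesothelial genes ran from 6.98 to 16.4 CPM in Sham HFD and from 2.49 to 7.14 CPM in Sham Chow, 1.36 to 4.16 CPM in RYGB Chow and 1.25 to 6.85 CPM in RYGB HFD. *Gpm6a* was the 1 mesothelial marker of 2 tested that rose in Sham HFD (1.69 ± 0.49 (SE), adjusted p = 0.0188 by edgeR). The sum of 8 portal fibroblast genes, which include *Eln*, ran from 16.7 to 24.9 CPM in Sham HFD and from 7.69 to 13.6 CPM in the other groups. The 9 Kupffer cell markers summed to 309 to 428 CPM in Sham HFD, 143 to 347 CPM in Sham Chow, 283 to 645 CPM in RYGB Chow and 282 to 514 CPM in RYGB HFD, and 5 of the 9 rose in Sham HFD. Of 13 quiescent stellate markers 8 rose in Sham HFD, 5 of the 8 being among the 40 genes. Over all tested genes 10.9% were called higher in that comparison. Of those 5 members, *Des*, *Reln*, *Hgf* and *Ecm1* lost the call without Sham HFD replicates 1 and 4, and *Pdgfrb* kept it. The sums of the 13 markers overlapped in all 4 groups, at 529 to 841, 625 to 973, 773 to 929 and 641 to 1102 CPM, with sham before RYGB on chow and then on HFD. The 7 activated stellate markers summed to 34.2 to 41.4 CPM in Sham HFD and to 7.64 to 20.5 CPM elsewhere. Among these 7 are the members *Acta2*, *Col1a1*, *Timp1*, *Loxl2* and *Lox*, so the sum largely repeats values given above. No gene of these marker lists was at 0 in all 20 mice.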

How the data were processed

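Raw counts per gene were deposited by the authors for 20 liver libraries; per the labels and the submitters' processing notes, poly-A RNA was sequenced from strand-specific libraries, reads were trimmed with Trimmomatic 0.36, aligned with HISAT2 2.1.0 to mm10 and counted with featureCounts 1.5.0-p3. The annotation release, strand setting and treatment of multi-mapping reads are not given in the sources used here. GENCODE M21 gave symbols for 54409 of 54532 genes.

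The 12289 genes that reached 2 CPM in 3 or more mice were fitted in 1 model of all 20 mice with edgeR 4.0.16 (R 4.3.3), using TMM scaling (factors 0.916 to 1.13) and the quasi-likelihood test. The 4 comparisons and the interaction were contrasts of that model, and p-values were adjusted by the Benjamini-Hochberg method over all tested genes, with a threshold of 0.05. The SE of a log2 fold change was taken as that value divided by the signed square root of the test's F statistic. The biological coefficient of variation was 0.181. Depth was 14604854 to 22537498 counts per mouse. Mice are the replicates; the labels give neither cage nor batch. No 2 columns were identical.

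Alternatives were DESeq2 1.42.0, limma-voom (limma 3.58.1), other scalings, other filters, a fit of the 2 groups alone, a replicate block and leaving out each mouse; 2 fits without doubtful libraries were added after the data had been seen. Deviations of same-numbered mice from their group means correlated over 0.1 in 5 of 30 pairs. Differently numbered mice were not compared, so a pairing by number was not tested and the block is an alternative only. The edgeR, DESeq2 and limma-voom steps were tested on simulated counts. Exact permutation tests used log2(CPM + 0.5).

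The members and gene lists were chosen with earlier results of these data known. Values by mouse are given for up to 6 called genes with the smallest p in each comparison, the 3 with the smallest interaction p, and *Col1a1*, *Col1a2*, *Col3a1*, *Reln*, *Des*, *Pdgfrb*, *Acta2*, *Tgfb1* and *Timp1*; from the wider list, up to 5 called genes with the smallest p in each comparison are named. Values by mouse of *Timp3*, *Col4a1* and *Lox*, and the mention of *Gpm6a*, *Cfd* and the hepatocyte and macrophage markers, were chosen after their values were seen. Promoter windows are from RefSeq (GRCm38.p6).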

Additional observations from a re-analysis of the deposited data

Results flagged for a closer look

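Single mice stood far from the other 4 of their group in 11 of 160 groups of 5 by Dixon's test, where chance gives about 1 in 20. In Sham HFD these were *Des* (32.17 CPM), *Ecm1* (126.8 CPM) and *Fbn1* (5.811 CPM) in replicate 4, the library with skeletal muscle transcripts, and *Lum* (12.7 CPM), *Vim* (38.09 CPM) and *Acta2* (4.812 CPM) in replicate 1. In RYGB Chow they were *Lamc1* (9.736 CPM) and *Hgf* (3.793 CPM) in replicate 5, one of the libraries low in endothelial genes, *Col5a1* (8.672 CPM) in replicate 2 and *Col15a1* (12.69 CPM) in replicate 3. In Sham Chow it was *Acta2* (2.994 CPM) in replicate 1. The part of muscle, fat or endothelial RNA in these values was not tested.

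The response to diet differed between sham and RYGB mice by the interaction test of edgeR for 7 genes. On the log2 scale the differences were -1.7487 for *Col1a1*, -1.7386 for *Col1a2*, -1.3366 for *Col3a1*, -1.0361 for *Col14a1*, -0.8823 for *Col6a1*, -0.6552 for *Sparc* and -0.6192 for *Dcn*.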

How the results depend on the processing

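Of 298 alternative values of the counts and medians, 288 stayed within 1.5 times the reported count or within 0.17 of the reported median. The 0.17 is the SD between mice of a group of their median member level. Direction was compared only for single called genes, where 0 values reversed. DESeq2 called 2 genes for diet after bypass and 11 for the interaction, and scaling by library size alone called 12 for the interaction. Without Sham HFD replicates 1 and 4 the counts were 10 for surgery on HFD, 19 for diet in sham mice and 4 for the interaction. Calls over all tested genes also fell for the same comparisons in that fit. Without the 3 libraries low in endothelial genes the counts were 1 for surgery on chow and 3 for the interaction. Both of these fits were chosen after seeing the data. Leaving out 1 mouse at a time gave 0 for surgery on chow, 12 to 18 for surgery on HFD (12 without Sham HFD replicate 4), 22 to 32 for diet in sham mice (22 without the same mouse), 1 to 2 for diet after bypass (2 without RYGB Chow replicate 2) and 6 to 11 for the interaction (11 without RYGB Chow replicate 5). With the replicate block the counts were 0, 15, 27, 1 and 6 in the same order. Correlations between same-numbered mice ran from -0.257 to 0.16, over 0.1 in 5 of 30 pairs. Without differently numbered mice to compare with, this does not settle whether the numbers pair the mice. Without a filter the counts were 0, 15, 29, 1 and 6, and with a CPM of at least 5 they were 0, 15, 27, 1 and 7. The 69 exact permutation results with p under 0.05 stayed under it with pseudocounts of 0.1 and 2, and results above it were not checked. The smallest p that this test allows for 5 against 5 mice is 0.00794. The cause of these shifts was not tested.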
